A study of Mus musculus with 45 samples.

Results

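The peaks described here are the sites of Capicua (CIC) occupancy in the cerebellum of mice with an expanded Atxn1 allele, compared between an allele whose product can contact CIC and one in which that contact is mutated. The question was which CIC peaks of the expanded-allele mice were also listed when the contact of the expanded product was mutated, and which were not. Members were all peaks on chromosomes 1 to 19 listed for 154Q (1660 peaks) and for 154Q[V591A;S602D] (860 peaks), or 2520 of the 7213 peaks in all 3 lists of the study. A peak was counted as shared when it overlapped a peak of the other list by at least 1 bp. After removal of 44 peaks lying mostly in repeats, 816 peaks of the 154Q[V591A;S602D] list (the contact mutant) were compared with the 1660 peaks of 154Q.

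All animals were C57BL/6 mice of 10 weeks, and nuclei of each cerebellum were profiled by CUT&RUN, in which an antibody tethers a nuclease that releases the DNA under its target. The 154Q animals (n = 4) carried a knock-in Atxn1 allele with an expanded CAG repeat opposite a 2Q allele. The contact mutants (n = 3) carried the same expanded allele with V591A and S602D added by CRISPR/Cas9 editing, also opposite a 2Q allele, so unexpanded ATXN1 with an intact contact remained in them. CIC KO animals (n = 4; Engrailed1-Cre with floxed Cic alleles) lack CIC only in cells of the En1 lineage, and WT animals (n = 4) are cited for reference. Libraries of each genotype were merged and peaks were called against the merged CIC KO libraries, so there is 1 list per genotype, no spread between animals and no test between genotypes. A peak missing from a list did not pass the caller in that merged library, which is not a measurement of absent binding.

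CIC is an HMG-box repressor that sits at the promoters and enhancers of genes induced by receptor tyrosine kinase and ERK signalling, among them the Etv1, Etv4 and Etv5 transcription factors and the Sprouty, Spred and Dusp feedback inhibitors. It recruits histone deacetylase complexes and is released when ERK is active. ATXN1, the protein mutated in spinocerebellar ataxia type 1, binds CIC through its AXH domain, where V591A and S602D lie. Their complex is one of the best studied ATXN1 assemblies in the cerebellum, where Purkinje cells are the classical site of the disease.

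The sequences below illustrate the motif that CIC reads, which only some of the strongest summits held. Among the 25 strongest 154Q peaks, 11 of the 23 shared ones held a CIC octamer and 0 of the 2 in 154Q alone did. At ranks 26 to 50, 4 of 11 shared and 6 of 14 154Q-alone peaks held one. The windows below reach 50 bp to either side of the best 154Q summit, on the plus strand of GRCm38 as given by RefSeq, with the CIC octamers TGAATGAA, TCAATGAA, TGAATGGA and TCAATGGA of either strand in capitals. Of 39599 windows of this length at protein-coding start sites, 354 (0.894%) hold one of these octamers. The first 5 are the highest-ranked 154Q peaks with an octamer that were also listed in the contact mutant, leaving out windows that touch an untranslated exon.
near Mrc2, chr11:105353306-105353406: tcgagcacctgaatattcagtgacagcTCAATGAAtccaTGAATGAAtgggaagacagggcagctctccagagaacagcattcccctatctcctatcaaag
Etv5, chr16:22439848-22439948: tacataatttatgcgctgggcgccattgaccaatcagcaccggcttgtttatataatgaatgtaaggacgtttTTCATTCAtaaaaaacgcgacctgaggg
Clstn2, chr9:97685743-97685843: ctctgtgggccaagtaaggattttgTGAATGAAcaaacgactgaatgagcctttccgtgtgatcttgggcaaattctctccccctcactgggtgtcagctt
Etv1, chr12:38780729-38780829: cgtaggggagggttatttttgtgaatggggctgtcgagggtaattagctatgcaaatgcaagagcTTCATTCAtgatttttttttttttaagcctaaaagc
Spred2, chr11:19925975-19926075: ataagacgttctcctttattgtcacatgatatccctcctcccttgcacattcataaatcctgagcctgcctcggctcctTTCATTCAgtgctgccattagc

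The next 4 are the corresponding highest-ranked 154Q peaks that were missing from the contact-mutant list. The Shc4 window holds 2 different octamers and the Cntnap2 window 2 copies of TGAATGAA on the minus strand. Both sets of windows were picked for holding an octamer, so they do not compare the classes.
Galk1, chr11:116009756-116009856: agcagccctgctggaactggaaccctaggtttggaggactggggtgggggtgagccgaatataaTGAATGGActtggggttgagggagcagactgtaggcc
near Cartpt, chr13:99750829-99750929: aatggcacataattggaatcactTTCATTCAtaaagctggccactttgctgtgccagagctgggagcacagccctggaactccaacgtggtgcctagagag
Shc4, chr2:125724092-125724192: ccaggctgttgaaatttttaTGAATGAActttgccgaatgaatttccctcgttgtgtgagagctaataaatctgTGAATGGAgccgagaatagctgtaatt
Cntnap2, chr6:46399277-46399377: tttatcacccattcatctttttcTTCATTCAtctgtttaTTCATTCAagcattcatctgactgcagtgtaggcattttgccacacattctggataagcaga

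Strong peaks also stood over windows without any of these octamers. The 2 examples are among the highest such windows in each class, chosen clear of untranslated exons as above, at Hsd17b12 among the shared peaks and at Mettl14 among those missing from the contact mutant.
Hsd17b12, chr2:94157979-94158079: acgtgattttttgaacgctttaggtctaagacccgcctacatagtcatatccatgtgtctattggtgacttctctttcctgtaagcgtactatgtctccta
Mettl14, chr3:123386842-123386942: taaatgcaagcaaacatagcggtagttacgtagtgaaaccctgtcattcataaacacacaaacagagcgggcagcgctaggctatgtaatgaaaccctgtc

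Of the 1660 154Q peaks, 404 were shared with the contact mutant (24.3%, 95% Wilson interval 22.3 to 26.5%) and 1256 were listed in 154Q alone (75.7%). Of the 816 contact-mutant peaks, 408 (50%, 46.6 to 53.4%) were shared and 408 were listed there alone. These intervals cover counting error over peaks only, and peaks of 1 merged library are not replicates. At 379 of the 404 shared peaks (93.8%) the best 154Q summit fell inside the contact-mutant interval, and the best summits of both lists were a median of 32.5 bp apart. The exception with the widest spacing was Spred2, whose best 154Q summit and contact-mutant summit lay over 500 bp apart within 1 peak of several summits, so the octamer shown for it lies outside the contact-mutant interval.

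The shared share was highest at the top of both lists. Among the 25 strongest 154Q peaks, 23 were shared (92.0%, 75.03 to 97.8%), against 83 of 860 (9.65%, 7.85 to 11.8%) at ranks 801 to 1660. The decline was not even, because only 11 of 25 peaks at ranks 26 to 50 were shared, against 29 of 50 at ranks 51 to 100 and 56 of 100 at ranks 101 to 200. Seen from the contact mutant, 24 of its 25 strongest peaks and 23 of the next 25 were also 154Q peaks. Above a −log10 q of 50 the contact mutant had 5 peaks, all shared, while 154Q had 45 peaks, of which 11 were missing from the contact mutant.

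**Figure D1:**
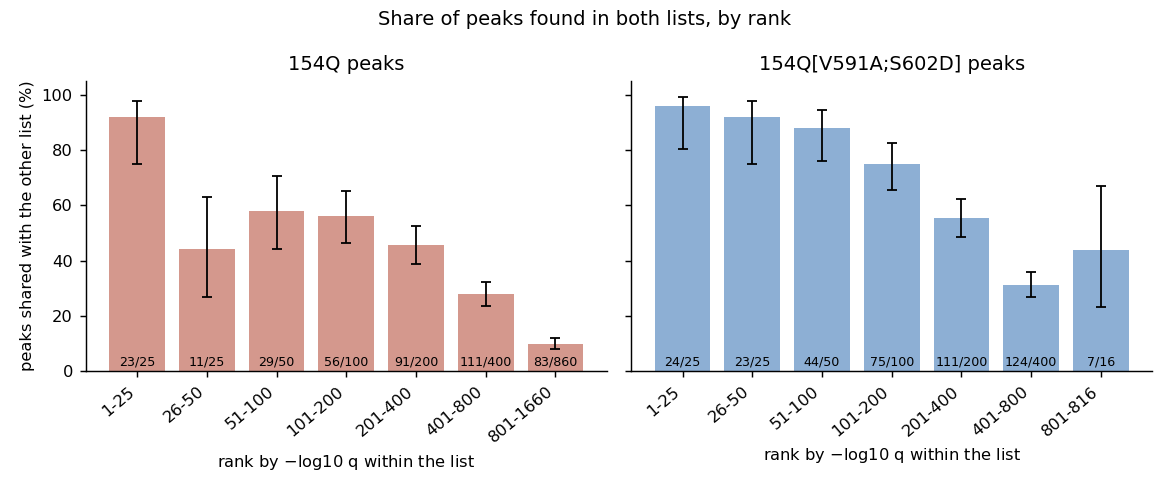
Percent of peaks shared with the other list (y axis) by rank of −log10 q (x axis), for the 154Q list (left) and the 154Q[V591A;S602D] list (right), with 95% Wilson intervals and counts at the foot of each bar. The 25 strongest peaks were shared at 92.0% in 154Q and 96.0% in the contact mutant, and the share fell to 9.65% of the 860 weakest 154Q peaks.

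Shared peaks were the more significant ones in both lists. This is a description, since calling in both lists decides which peaks are shared. The median −log10 q was 7.74 for shared and 3.07 for 154Q-alone peaks in 154Q, and 4.47 and 2.22 in the contact mutant. The contact-mutant list also gives fold enrichment over the CIC KO control, with a median of 3.26 at shared and 3.05 at contact-mutant-alone peaks. A median of 31 fragments stood over a shared and 22 fragments over a contact-mutant-alone summit, as solved from the deposited values, and the smallest was 18 fragments. The 154Q list carries no fold enrichment, so its fragment depth was not recoverable, and the depth of the 3-animal contact-mutant pool and a loss of occupancy cannot be told apart from list membership.

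**Figure D2:**
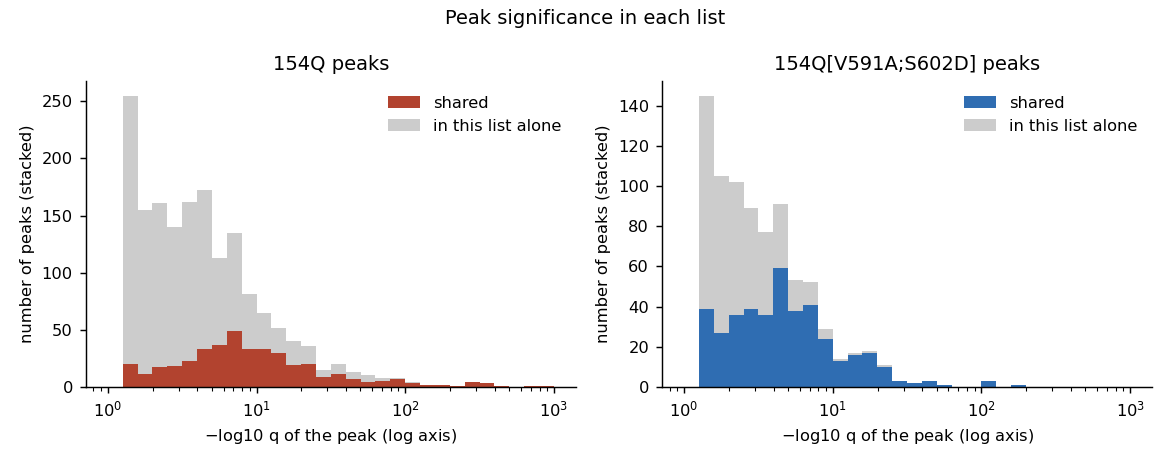
Number of peaks (y axis, stacked) by −log10 q (x axis, log scale) in the 154Q list (left) and the 154Q[V591A;S602D] list (right), with shared peaks in colour and peaks of 1 list alone in grey. Single-list peaks lie mostly at low values, with a median of 3.07 in 154Q and 2.22 in the contact mutant, yet reach 118.8 in 154Q and 21 in the contact mutant.

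Few of the 154Q-alone peaks were near misses. A contact-mutant summit lay within 100 bp of 17 of the 1256 peaks, within 500 bp of 77 (6.13%) and within 5000 bp of 137 (10.9%), and the median distance was 368575 bp. Of the 408 contact-mutant-alone peaks, 73 (17.9%) had a 154Q summit within 500 bp. The 154Q list gives summit points and not intervals.

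The established CIC targets mostly kept a peak when the contact of the expanded product was mutated and that of the unexpanded product stayed intact. Of 12 established targets, 7 had a peak in both lists (Etv1, Etv4, Etv5, Spry4, Spred1, Spred2 and Dusp4), 4 had one in 154Q alone (Shc3, Ccnd1, Dusp6 and Spred3), and Spry2 had none. Over all 20780 protein-coding genes, 7.24% had a 154Q peak, 3.87% a contact-mutant peak, 2.54% a peak in both lists, 4.71% in 154Q alone and 1.34% in the contact mutant alone. The list was drawn up with earlier results of these peaks known, so its counts are not independent evidence.

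At Spry4, an inhibitor of receptor tyrosine kinase signalling, the 154Q summit lay on chromosome 18 at position 38601413, at the start site. Its −log10 q was 674 in 154Q, 123 in the contact mutant and 303 in WT. Etv5 was the strongest contact-mutant peak, with a −log10 q of 180 there, 398 in 154Q and 488 in WT, and it held 3 peaks in both mutant lists, all 3 of the 154Q ones shared. Its main summit lay at position 22439898 of chromosome 16, 179 bp from the start. Spry4 and Etv5 were thus listed near the top of each list, at rank 2 in both lists for Spry4 and at ranks 4 and 1 for Etv5.

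Etv4, a further ETS activator of the same subfamily, stood at a −log10 q of 257 in 154Q, 14.3 in the contact mutant and 68.0 in WT. It ranked 9 in 154Q and 50 in the contact mutant, with both summits 1 bp apart. Etv1 gave 201, 20.2 and 72.1 in the same order, and its contact-mutant summit again lay 1 bp from that of 154Q. Both promoters kept a peak, and both had their lowest −log10 q in the contact mutant, where pool depth and occupancy cannot be told apart.

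Spred1, a membrane-bound inhibitor of RAS signalling, had its best peak in an intron, 1354 bp from the start. The −log10 q was 307 in 154Q, 56.1 in the contact mutant and 173 in WT. It had the highest fold enrichment of the contact-mutant list, 8.92, against 16.0 in WT. Spred2 gave a −log10 q of 151 in 154Q, 14.5 in the contact mutant and 37.6 in WT. Dusp4, a nuclear MAP kinase phosphatase, gave 307, 30.7 and 119 in the same order.

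The fold enrichment could be set side by side only for the contact mutant and WT. It was 4.58 and 5.90 at Etv5, 4.29 and 6.32 at Spry4, and 4.36 and 7.34 at Etv1. At Etv4 it was 2.09 and 3.22, at Dusp4 3.65 and 5.99, and at Spred2 4.98 and 6.85. The lower value was that of the contact mutant at each of the 7 kept targets, in single merged libraries with no spread to test it against.

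Among the targets listed in 154Q alone, Shc3 was the strongest. Shc3 encodes a neuronal adaptor of receptor tyrosine kinases, and its peak on chromosome 13, just beyond the annotated 5′ end of the gene and 2423 bp from the nearest start site used here, had 4 summits and a −log10 q of 72.7 in 154Q, against 6.98 in WT. Ccnd1, which encodes cyclin D1, had a −log10 q of 20.02 at a summit 1543 bp from its start, with an octamer and no WT peak. Dusp6, the cytoplasmic ERK phosphatase, had 15.7 at its promoter in 154Q and 2.29 in WT. Spred3 had 9.48 at a promoter summit with an octamer, 2 bp from the start, and no WT peak. The nearest contact-mutant summit lay 81721 bp away at Shc3 and 135163 bp away at Spred3, so these are no near misses.

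**Figure D3:**
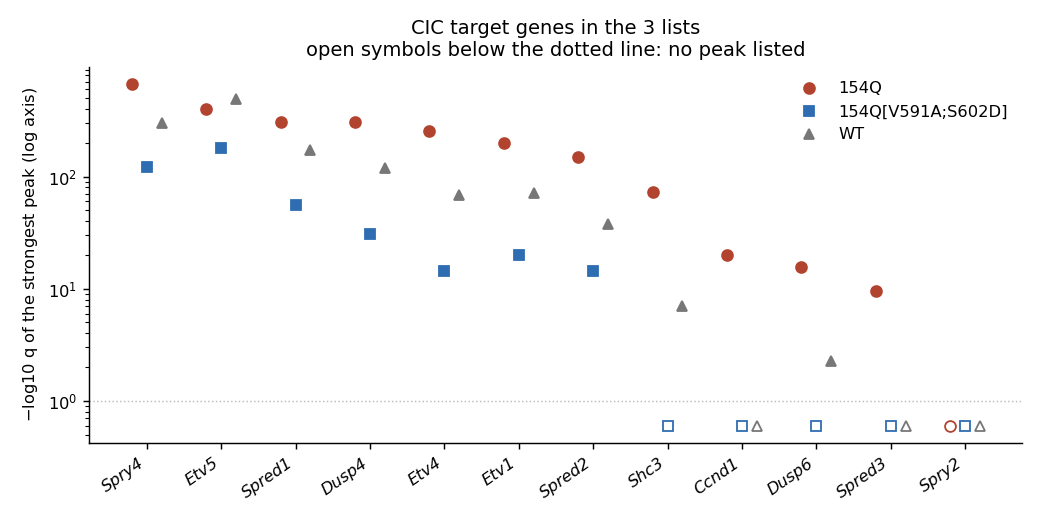
−log10 q (y axis, log scale) of the strongest peak at each of 12 CIC targets (x axis) in 154Q (circles), 154Q[V591A;S602D] (squares) and WT (triangles), with open symbols under the dotted line where no peak was listed. The 7 targets with the highest 154Q values kept a contact-mutant peak, from 14.3 at Etv4 to 180 at Etv5, and the other 5 had none.

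The remaining strong shared peaks lay at genes outside the ERK feedback group. The strongest 154Q peak of all, at position 105353356 of chromosome 11, was intergenic and 60688 bp from the start of Mrc2, a collagen receptor gene, with a −log10 q of 922 in 154Q, 117 in the contact mutant and 446 in WT. Hsd17b12, an enzyme of fatty acid elongation, had 425, 106 and 351 at its promoter. An intergenic peak 174930 bp from Sipa1l2 had 370, 23.7 and 208, and an intronic peak of Clstn2, a synaptic calsyntenin, had 320, 45.01 and 229. At each of these the contact-mutant value was the lowest of the 3. These peaks were picked for a high 154Q value, and pool depth and occupancy cannot be told apart in −log10 q. At the Ung promoter, also shared, the contact mutant had the highest value, 41.3, against 1.86 in 154Q and 33.1 in WT.

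The promoters of Hsd11b1, the glucocorticoid-activating reductase, Rhebl1, a RHEB-like GTPase, and Mafg, a small MAF factor, completed the 15 strongest shared peaks. Hsd11b1 had a −log10 q of 176 in 154Q and 22.0 in the contact mutant, Rhebl1 174 and 31.9, and Mafg 149 and 20.03. A second Etv5 peak, 1157 bp from its start, had 253 and 24.2.

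The strongest peak that was missing from the contact mutant was at Mettl14, a subunit of the RNA N6-adenosine methyltransferase. It had 3 summits, the best 784 bp from the start at position 123386892 of chromosome 3, and ranked 16 in 154Q with a −log10 q of 119, against 6.81 in WT. Next came an intergenic peak at position 84319077 of chromosome 6, with 95.9 in 154Q and 31.4 in WT, 268603 bp from Cyp26b1, a retinoic acid hydroxylase. The Bach2 promoter, of a BTB and bZIP repressor, had 70.8 and 19.2. Besides Shc3, its paralog Shc4 belonged here, with 58.1 in 154Q and 5.86 in WT at an octamer 755 bp from the start.

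Several of these peaks had no WT counterpart. Id1, an inhibitor of basic helix-loop-helix factors, had a −log10 q of 58.9 in 154Q, 1058 bp from its start, and no peak in either of the other lists. The same held for an intergenic peak 149762 bp from Cartpt, with 61.8, for an intronic peak of Cntnap2, a neurexin-family adhesion gene, with 51.0, and for a peak 6180 bp from Hpdl, with 46.5. Those near Cartpt and Hpdl and in Cntnap2 held an octamer, and that at Id1 did not.

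The other 154Q-alone peaks among the 15 strongest had a WT counterpart. Galk1, the galactokinase gene, had a −log10 q of 61.8 in 154Q and 16.9 in WT, and Fut9, a fucosyltransferase gene, had 58.2 and 17.4. The gene model Gm20479 had 64.6 and 25.9, and Atf7ip, a cofactor of the histone methyltransferase SETDB1, had 47.7 and 15.4 at its promoter. A peak 171822 bp from Tph2, the neuronal tryptophan hydroxylase gene, had 47.3 and 4.35, and 1700003F12Rik had 46.8 and 23.1. No contact-mutant summit lay closer than 81721 bp to any of the 15.

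Peaks listed in the contact mutant alone were weaker. The strongest lay at the promoter of Uqcrq, a subunit of respiratory complex III, with a −log10 q of 21, a fold enrichment of 4.60 and 71 fragments, and a value of 54.2 in WT. Lsm14b, an RNA granule protein gene, had 18.9 in the contact mutant and 1.47 in WT. Maz, a zinc finger factor, had 11.4 and 26.8, and Pnkd 8.57 and 10.2, both at promoters. None of the 10 strongest held an octamer within 50 bp of its summit.

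Some of these calls sat beside a 154Q summit. The nearest was 79 bp away at Efcab2 (−log10 q 9.51), 125 bp at Hdgfl2 (8.07) and 744 bp at Phf12 (15.8), a PHD-finger component of SIN3 complexes. The others were an intergenic peak 11879 bp from Npas4, the activity-induced neuronal factor, with 8.88, one near Neto1 with 8.28, and an intronic peak of Cdyl, a chromodomain corepressor, with 7.43.

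Position differed between shared and single-list peaks in both lists. In 154Q, 313 of 404 shared summits (77.5%, 73.2 to 81.3%) lay within 1000 bp of an annotated start site, against 720 of 1256 154Q-alone summits (57.3%, 54.6 to 60.03%). The difference was 20.2 percentage points (two-sided Fisher's exact test, Benjamini-Hochberg adjusted over 6 tests, adjusted p 6.71e-13). In the contact mutant the shares were 76.7% and 65.9%, a difference of 10.8 points (Fisher's exact test, adjusted p 0.00102). Put the other way, 30.3% of 1033 promoter peaks of 154Q were shared, against 15.6% of 392 intronic and 14.2% of 197 intergenic peaks. These tests treat peaks as independent and compare lists, not animals. GC content moved with the classes in 154Q, with a median of 59.4% in shared and 56.4% in 154Q-alone windows, and its part in the difference was not tested.

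The CIC octamer was found around 154Q summits whether or not the contact mutant shared them. Of the 404 shared peaks, 34 (8.42%, 6.08 to 11.5%) held an octamer within 50 bp of the summit and 2 (0.495%) in the window 500 bp away (exact McNemar test, two-sided, adjusted p 5.82e-08). Of the 1256 154Q-alone peaks, 77 (6.13%, 4.93 to 7.60%) held it at the summit and 23 (1.83%) in the flank (exact McNemar test, adjusted p 1.10e-07). The difference between shared and alone was 2.29 percentage points and did not pass (Fisher's exact test, adjusted p 0.110). Its sign turned among peaks above the median −log10 q of the list (-1.29 points) and among those at or below it (-1.35 points), and for TGAATGAA alone (-0.18 points). At promoters 20 of 313 shared (6.39%) and 26 of 720 154Q-alone summits (3.61%) held the octamer. Elsewhere 14 of 91 (15.4%) and 51 of 536 (9.51%) did. This split by place was not tested.

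In the contact-mutant list the octamer was more frequent at shared summits, though most summits of both classes held none. It stood at 25 of 408 shared summits (6.13%, 4.18 to 8.89%) and at 5 of 408 contact-mutant-alone summits (1.23%, 0.525 to 2.84%), a difference of 4.90 points (two-sided Fisher's exact test, adjusted p 0.000381). Among peaks at or below the median −log10 q of that list the difference was 2.79 points and did not pass (Fisher's exact test, adjusted p 0.228). Among promoter peaks 16 of 313 shared and 1 of 269 contact-mutant-alone summits held the octamer.

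**Figure D4:**
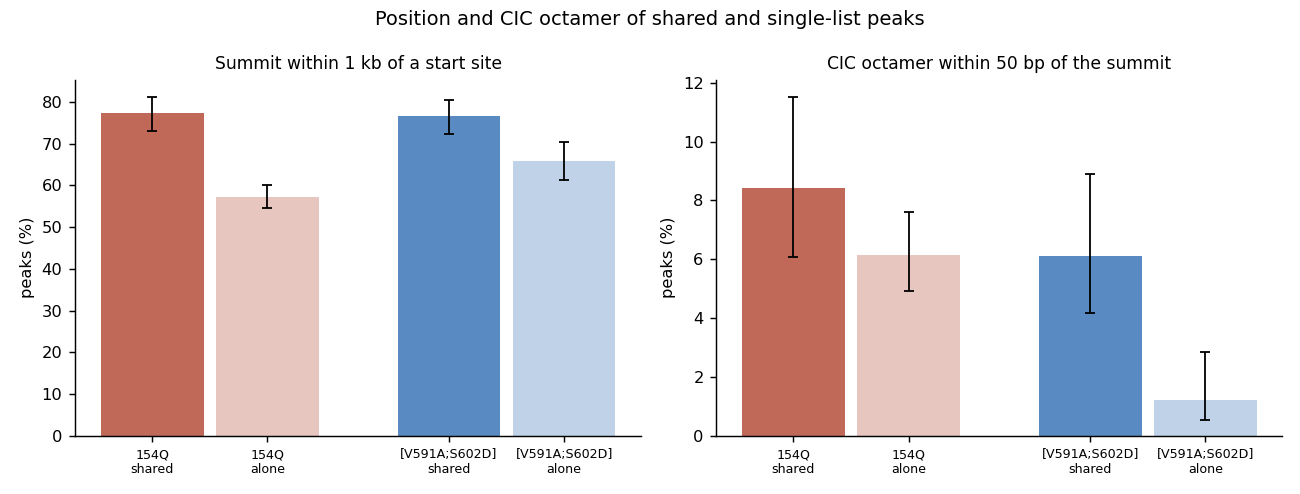
Percent of peaks (y axis) with the best summit within 1 kb of a start site (left) and with a CIC octamer within 50 bp of it (right), for shared and single-list peaks of 154Q (red) and 154Q[V591A;S602D] (blue), with 95% Wilson intervals. Promoter shares were 77.5% and 57.3% in 154Q, and octamer shares were 6.13% and 1.23% in the contact mutant.

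The 4 octamers did not divide alike, which was noticed after the values were seen and is given without a test. TGAATGAA stood at 16 of 404 shared and 52 of 1256 154Q-alone summits, and TGAATGGA at 12 and 26. TCAATGAA stood at 9 shared and 3 154Q-alone summits, and at 7 shared and 1 contact-mutant-alone summit of the contact-mutant list. The shared 154Q peaks with TCAATGAA included the one near Mrc2, Hsd11b1, Epc2, Hexim2, Per2, Fos and a further intronic Etv5 peak.

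By gene, 1505 protein-coding genes had a 154Q peak and 805 a contact-mutant peak, assigned where the best summit lay in the gene or up to 5000 bp upstream. Both lists named 527 genes, which is 35.02% of the 154Q genes and 65.5% of the contact-mutant genes, and at 431 of them a shared peak was involved. A further 978 genes had a peak in 154Q alone and 278 in the contact mutant alone. At 72 genes, shared and 154Q-alone peaks stood side by side.

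Etv1 and Spred2 were the strongest of these mixed genes. Etv1 kept 3 of its 4 154Q peaks, and the missing one (−log10 q 11.5) was intronic, 52377 bp from the main summit. Spred2 likewise kept 3 of 4 and lacked an intronic one (6.15). Ankrd40, Unc13a, a synaptic vesicle priming gene, and Epc2, a NuA4 subunit gene, each kept a strong peak and lacked a weaker one 589 to 915 bp away, with 116 and 3.91 at Ankrd40, 82.1 and 2.44 at Unc13a, and 79.8 and 22.9 at Epc2.

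Of 39 genes of the ERK cascade itself, 7 (17.9%) had a 154Q peak alone and none had one in both lists, against 4.71% and 2.54% of all coding genes. Over all genes, 978 of the 1505 with a 154Q peak likewise had none in the contact mutant, and most of the cascade's peaks were weak, so nothing particular to the cascade is read from this count. Nf1, the RAS GTPase-activating protein neurofibromin, was the strongest, with a −log10 q of 26.9 at its promoter and no WT peak. Rras had 5.99, at a summit nearer the start of Scaf1. Frs3, an FGF receptor adaptor, had 4.45, and Grb2 had 2.80.

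Of 13 other Sprouty, Spred and Dusp genes, Dusp5 alone had a peak in both lists (2.54% of all coding genes did), with a −log10 q of 35.7 in 154Q and 10.7 in the contact mutant, and Dusp1, Dusp7 and Dusp22 had weak ones in 154Q alone, from 1.44 to 1.86, which 4.71% of all genes did. Of 15 other ETS factor genes none had a 154Q peak, and Elk3 had one in the contact mutant alone (3.10). Of all coding genes, 7.24% and 1.34% did, so nothing is read from so short a list. Of 17 cyclin and cell cycle genes, 3 had a peak in 154Q alone and none in both lists, namely Cdk4 (6.63), Ccnd3 (5.39, nearer the start of Taf8) and Ccne2 (1.42), where 4.71% and 2.54% of all genes had one.

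Immediate early genes, the rapid transcriptional targets of ERK and calcium signalling, were found in all classes. Of 20 genes, 4 had a peak in both lists, 2 in 154Q alone and 1 in the contact mutant alone, against 2.54%, 4.71% and 1.34% of all coding genes. Fos had a −log10 q of 35.7 in 154Q, 19.5 in the contact mutant and 63.1 in WT. Egr1 had 12.0, 6.74 and 40.3, and Fosb 7.30, 7.05 and 28.9. At Nr4a3 the peaks of both lists were different ones, 458 bp apart at the nearest summits. Nr4a1, an orphan nuclear receptor gene, had 15.5 and Fosl1 14.7 in 154Q alone, whereas Jun had 1.98 in the contact mutant alone.

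Among CIC and ATXN1 partners, Cic had a shared promoter peak with a −log10 q of 62.0 in 154Q, 9.57 in the contact mutant and 32.1 in WT. Cic is the gene altered in the control animals, and the part of that alteration in its peaks was not tested. Zbtb5 had 14.4, 9.78 and 39.8, and Sin3a, the scaffold of a deacetylase complex, 13.6, 8.44 and 47.2. Hdac3, a histone deacetylase gene, had 7.54 in 154Q alone, at a summit nearer the start of Rell2. Atxn1 had a contact-mutant peak of 1.98 alone, 396431 bp from its start, and Rfx1, Zkscan1 and Atxn1l had no peak in either mutant list. In all, 3 of 15 partners had a peak in both lists, 2 in 154Q alone and 1 in the contact mutant alone (2.54%, 4.71% and 1.34% of all genes).

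**Figure D5:**
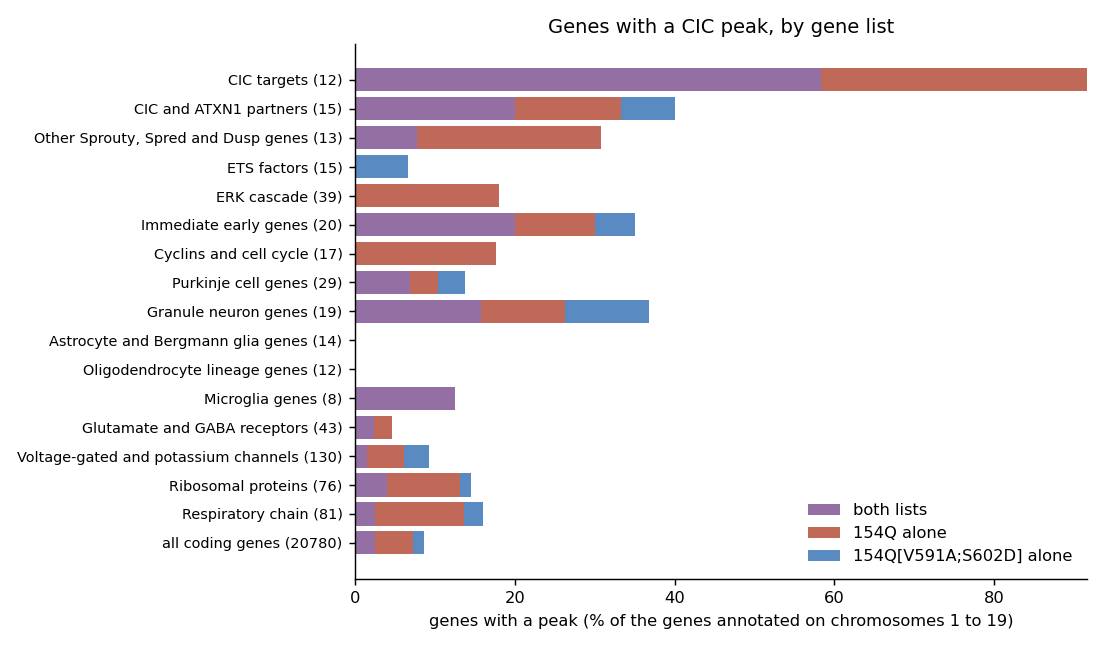
Percent of the genes of each list (x axis; number of annotated genes in brackets) with a peak in both lists, in 154Q alone and in 154Q[V591A;S602D] alone, and the same for all protein-coding genes. CIC targets stood at 7 and 4 of 12 genes in both lists and in 154Q alone, against 2.54% and 4.71% of all genes.

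Marker genes of cerebellar cell types were examined because the profiled nuclei came from whole cerebellum. A CIC peak does not report expression, so these counts cannot check the tissue label. Of 29 Purkinje cell genes, 2 had a peak in both lists, 1 in 154Q alone and 1 in the contact mutant alone, beside 2.54%, 4.71% and 1.34% of all genes. Inpp5a, an inositol phosphatase gene, had 41.0 in 154Q, 16.3 in the contact mutant and 69.2 in WT. Rgs8 had different peaks in the lists, with 11.6 in 154Q and 4.14 in the contact mutant, Plcb4 had 3.84 in 154Q alone, and Cacna1a 3.08 in the contact mutant alone.

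Of 19 granule neuron genes, 3 had a peak in both lists, 2 in 154Q alone and 2 in the contact mutant alone, with the same shares of all genes for comparison. At the strongest 154Q peak, Cbln3 had 11.5 in 154Q and 2.997 in the contact mutant, Tiam1 7.01 and 1.44, and Zic2 1.83 and 3.08. Zic1 and Zic4, which lie head to head, shared 1 peak of 2.07 in 154Q alone, and Neurod2 (4.08) and Slc17a7 (3.52) had one in the contact mutant alone. No astrocyte gene of 14 and no oligodendrocyte gene of 12 had a peak in either list. Of all coding genes, 7.24% had a 154Q peak and 3.87% a contact-mutant peak. Of 8 microglia genes Cx3cr1 had weak peaks in both (1.44 and 1.53; 2.54% of all genes had both) that did not overlap, with summits 78 bp apart. With lists this short, nothing particular to glia is read from these counts.

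A 154Q peak was found at 4.65% of the receptor genes and 6.15% of the channel genes of neurons, against 7.24% of all coding genes. Of 43 glutamate and GABA receptor genes, Gabrd had separate peaks in both lists (6.18 and 1.53) and Grm4 one in 154Q alone (1.44). Of 130 channel genes, 2 had a peak in both lists, 6 in 154Q alone and 4 in the contact mutant alone (2.54%, 4.71% and 1.34% of all genes). Kcnb2 had the strongest, with 72.7 in 154Q, 8.39 in the contact mutant and 9.88 in WT, at an octamer. Cacna1e had 9.48 and 4.76. In 154Q alone Scn8a had 4.15, Kcnj12 3.31 and Cacna1c 2.56, and Kcnip3 had 3.52 in the contact mutant alone.

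Housekeeping promoters were represented in every class. Of 76 ribosomal protein genes, 3 had a peak in both lists (3.95%), 7 in 154Q alone (9.21%) and 1 in the contact mutant alone, against 2.54%, 4.71% and 1.34% of all genes. Rpl41 had 12.3 in 154Q, 17.0 in the contact mutant and 83.1 in WT, so here the contact mutant had the higher value of the mutant lists. Rps26 had 17.0 in 154Q and 1.53 in the contact mutant, and Rpl27 1.32 and 1.97. Rps3 (11.4), Rplp2 (6.33), Rps27a (4.39) and Rpl6 (3.81) had one in 154Q alone, and Rps19 (5.19) in the contact mutant alone. Ribosomal protein genes have many near-identical pseudogenes, and whether reads that map to several copies affected these values was not tested.

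Of 81 respiratory chain genes, 2 had a peak in both lists (2.47%), 9 in 154Q alone (11.1%) and 2 in the contact mutant alone, against 2.54%, 4.71% and 1.34% of all genes. Cox8a had the strongest 154Q-alone value, 15.7 at an octamer, followed by Ndufa3 (4.97), Atp5g1 (4.48) and Cox5a (3.25). Ndufv1 had 4.39 in 154Q and 3.91 in the contact mutant. Atp5d had 34.6 and 3.55 at separate peaks, 203 bp apart at the nearest summits and both at the promoter of its neighbour Cbarp. Besides Uqcrq, Uqcrh had a contact-mutant peak alone (3.63).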

How the data were processed

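CIC CUT&RUN libraries of 154Q (n = 4), 154Q[V591A;S602D] (n = 3), WT (n = 4) and CIC KO (n = 4) cerebella were used as the authors' merged peak lists. Of 45 samples, the H3K27ac and IgG libraries were not used here. The authors trimmed reads with Trimmomatic 0.36, aligned them with Bowtie2 2.3.4.1 to GRCm38, kept short fragments, merged replicates and called peaks with MACS3 at a q-value of 0.05 against CIC KO. The submitters' processing notes also name SAMtools 1.10 and bedtools 2.29.1. The deposited WT and contact-mutant lists give a fold enrichment, a ratio of pileup to control background, with −log10 p-values and −log10 q-values. The deposited 154Q list gives summits with −log10 q alone and had already been filtered for repeats by the authors.

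Lines were collapsed by peak number, and the summit with the highest −log10 q represented each peak. A 154Q peak spanned its summits. Contact-mutant peaks with over 50% soft-masked bases were removed. The whole-number pileup was solved from fold enrichment and −log10 p within 0.2%, for 816 of 816 contact-mutant peaks. Positions are 1-based on GRCm38, with GENCODE M21 basic annotation. A peak belonged to coding genes whose body or 5000 bp upstream held its best summit, the nearest start naming it, and other peaks are given with the nearest coding start. Shares carry 95% Wilson intervals. Fisher's exact and exact McNemar tests were two-sided and adjusted over 6 tests by Benjamini and Hochberg. They measure spread over peaks, not animals. Python 3.11.15, scipy 1.17.1, pysam 0.24.0 and pandas 2.3.3 were used, and the functions were tested on simulated data.

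Genes named are those of the 15 strongest shared and 15 strongest 154Q-alone peaks, of the 10 strongest contact-mutant-alone peaks, the 12 CIC targets, Cic, Atxn1, Atxn1l, Rfx1, Zbtb5 and Zkscan1, up to 4 list members with the highest 154Q value in each class and 2 of the contact mutant alone, and 5 genes with both kinds of peak. Hdac3 and Sin3a come from the partner list, and Ung and the genes with TCAATGAA were named after their values were seen. The members and the 16 lists were chosen with earlier results of these data known. Values of some genes that the rule names are not reported here. Alternatives were a stricter q, other overlap rules, no repeat filter, equal list lengths, peaks above or below each list's median −log10 q, and other promoter, gene and motif windows.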

Additional observations from a re-analysis of the deposited data

Results flagged for a closer look

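Peaks outside chromosomes 1 to 19 were not part of the comparison. The 154Q list held 21 peaks on chromosome X, 9 on chromosome Y and 5 on unplaced scaffolds, and the contact-mutant list held 16, 42 and 4. The contact-mutant list also held 44 peaks on chromosomes 1 to 19 with over 50% of their bases in masked repeats, of which 1 overlapped a 154Q peak and the strongest had a −log10 q of 893, above every peak that entered the comparison from that list.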

How the results depend on the processing

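The shared share of 154Q peaks was 24.3% and moved to 29.0% with summits counted as shared within 500 bp and to 39.7% when only the 816 strongest 154Q peaks were used. That of contact-mutant peaks was 50% and moved to 62.9% with −log10 q above 3 in both lists, to 58.9% within 500 bp and to 40.3% with equal list lengths. The first and last of these have fewer peaks by construction. Genes with a peak in both lists fell from 527 to 277 at −log10 q above 3, with fewer peaks entering. The octamer difference in 154Q (2.29 points, adjusted p 0.110) reversed to -1.29 above the list's median −log10 q, -1.35 at or below it and -0.18 for TGAATGAA alone (adjusted p from 0.648 to 1), and the cause was not tested. That in the contact mutant weakened to 2.79 points at or below the median (adjusted p 0.228). The promoter differences and the summit excess of the octamer kept their direction and passed under each alternative run. No paired analysis was possible because the peak lists used here were called on merged replicates, so no library could be left out either; reads of single animals were not analysed here. The smallest contact-mutant peak had 18 fragments, so weaker occupancy was not detectable, and the depth of 154Q is unknown.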
